A study of Mus musculus with 2 samples.

Results

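The genes described here make fatty acids and triglycerides in the liver, and their expression was compared between mice with acute kidney injury (AKI) and sham-operated mice. Members were the 33 genes of a fixed list, chosen with earlier results of these data known. They were found by gene symbol in the platform annotation of the array. All 33 were found, with 72 of the 45101 probe sets, among 18193 genes named in all. A further probe set carries a member's symbol together with another gene's and was not used.

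Both groups were female wild-type C57BL/6 mice aged 8 weeks, killed 24 h after surgery. The sham group had a sham operation. The AKI group had both kidneys made ischemic for 30 minutes at body temperature and then reperfused. Liver tissue from 3 mice per group, 100 mg, was pooled into 1 tube and the pool was measured on 1 Affymetrix array, so there are 2 arrays and no replicate of either group. No test between the groups is possible, and "higher" and "lower" below compare these 2 pools only.

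The liver builds fatty acids from acetyl-CoA. ATP citrate lyase releases acetyl-CoA from citrate in the cytosol, acetyl-CoA carboxylase turns it into malonyl-CoA, and fatty acid synthase joins these units into palmitate with NADPH as reductant. Elongases and desaturases then lengthen the chain and add double bonds, and acyl transferases and lipins attach the acyl chains to glycerol to form triglyceride. Transcription of many of these genes in liver is driven by SREBP-1c, the insulin-responsive product of Srebf1, and by the glucose-responsive factor ChREBP, the product of Mlxipl.

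Values are signals on the scale of the deposited table, and where a pair of signals is given the sham pool comes first. A difference is the AKI value minus the sham value of log2(signal + 71.8). The added constant, 71.8, equals the 25th percentile of all deposited signals and understates the differences of weak genes. A gene is represented by its probe set with the highest mean signal and counts as past the level filter when that probe set reached an array's median signal, taken without the control probe sets, on either array (225.7 for sham, 231.8 for AKI). "At least 2-fold" means a difference of at least 1 in size.

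As deposited, both arrays had the same trimmed mean signal of 500.00. The ratio of the 3′ to the 5′ control probe set, which rises as RNA degrades, was 1.61 (sham) and 2.24 (AKI) for Actb, and 0.860 (sham) and 1.05 (AKI) for Gapdh. This ratio was thus higher on the AKI array for both controls, and its part in the differences below was not tested. The tissue label was checked against hepatocyte markers. Of 11 listed, 10 were measured and all of these passed the level filter on the sham array, with signals of 124515.9 (sham) and 98303.4 (AKI) for Alb. The hepatocyte markers had summed signals of 644118 (sham) and 565183 (AKI) and a median difference of -0.38. In such bulk tissue, fewer cells of a type and less RNA per cell cannot be told apart. Of the adipocyte markers, Adipoq (85.3 for sham and 167.5 for AKI) and Lep (35.8 and 161.2) were below the filter on both arrays, and Retn (1299.4 and 971.3) was past it. The neutrophil markers had summed signals of 2530 (sham) and 7265 (AKI). Of 7 measured, 3 were past the filter for sham and 6 for AKI. The brightest, S100a8, S100a9 and Ngp, were also the only 3 at least 2-fold higher. Of these, S100a8 (161.4 and 2023.4) and S100a9 (191.2 and 1666.6) passed the filter through the AKI array only, so their direction follows in part from the filter. Elane (192.3 and 376.5), also past the filter on the AKI array only, was higher by less. Mpo (438.1 and 426.1) and Csf3r (640.1 and 715.3) differed little. The Kupffer cell and macrophage markers summed to 12852 and 8190, with 7 of 8 past the filter on each array. Of these 8 markers 6 lay below 0, while Marco (187.4 and 640.3) and Cd68 (358.4 and 587.9) were higher. Summed signals of the other marker lists (stellate, endothelial, biliary, lymphoid, erythroid and pancreatic) were between 0.774 and 2.55 times the sham sum. These sums hide members that went opposite ways. The biliary sum, the highest ratio, rests mainly on Sox9 (229.2 and 1729.9), with 2 of 5 markers past the filter. In the endothelial list, the lowest, Clec4g (3086.1 and 674.0) and Lyve1 (216.8 and 1816.1) differed in direction. Marco and Lyve1 passed the filter through the AKI array only, which by itself favours a higher value. The 10 reference genes measured had a median difference of 0.20, but they ranged from -0.67 (Sdha) to 1.20 (Ywhaz), with 3 below 0. The part of these cell types in the differences below was not tested.

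Most genes of fatty acid and triglyceride synthesis were lower in the AKI pool. All 33 members passed the level filter. At least 2-fold lower were 16 of them, against 12.8% of all 13142 genes past the filter. Only 2 members were at least 2-fold higher, Scd1 and Lpin3, against 10.7% of all genes. A further gene, Mogat1, was higher by less than 2-fold, so 30 of the 33 lay below 0, against 51.1% of all genes. The median difference was -0.92 over the members and -0.02 over all genes. On both arrays 29 members passed the filter, but Acacb, Acsl3 and Pnpla3 passed it through the sham array only, and Lpin3 through the AKI array only, so the direction of these 4 follows in part from the filter.

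**Figure D1:**
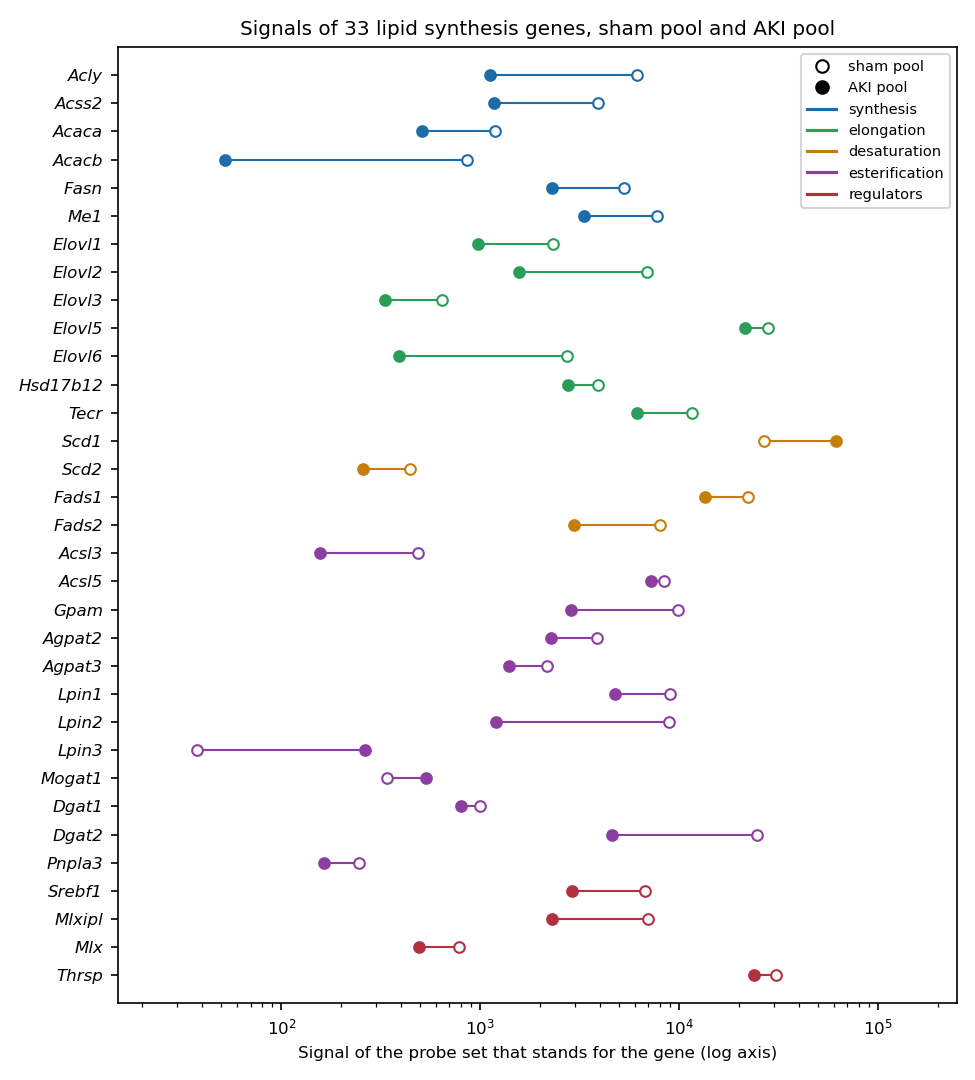
Signal of the probe set that stands for each of the 33 genes in the sham pool (open circles) and the AKI pool (filled circles), on a log axis, coloured by step of the pathway, with 1 array per pool and no error bar. The filled circle lies to the left of the open circle for 30 genes and to the right for Scd1, Lpin3 and Mogat1.

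Differences of 4-fold or more were found in 6 members, all lower in the AKI pool: Acacb, Lpin2, Elovl6, Dgat2, Acly and Elovl2. Over all genes 2.57% were at least 4-fold lower. No member was at least 4-fold higher, against 2.23% of all genes. These 6 belong to different steps, 2 each to synthesis, elongation and esterification. Among the members counted as at least 2-fold lower, Acaca (-1.11) and Fasn (-1.18) lay closest to the threshold, and Lpin1 and Tecr (both -0.92) lay just outside it. The only repeat measurement comes from genes with several probe sets. Over 21 members with several probe sets past the filter the pooled SD of the differences within a gene was 0.78, and over 5149 genes it was 0.70, so a single difference near 2-fold is little larger than this SD. The probe sets of 18 of these 21 members all went the same way, and those of Acly, Elovl6 and Scd2 did not. For 5 of the 21 each probe set that reached the filter was at least 2-fold lower, namely Acss2, Fads2, Gpam, Lpin2 and Dgat2. In Fads2 (926.5 and 35.1), Gpam (693.0 and 47.2) and Lpin2 (275.7 and 29.5), however, 1 of these probe sets passed the filter through the sham array only, which by itself favours a lower value.

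**Figure D2:**
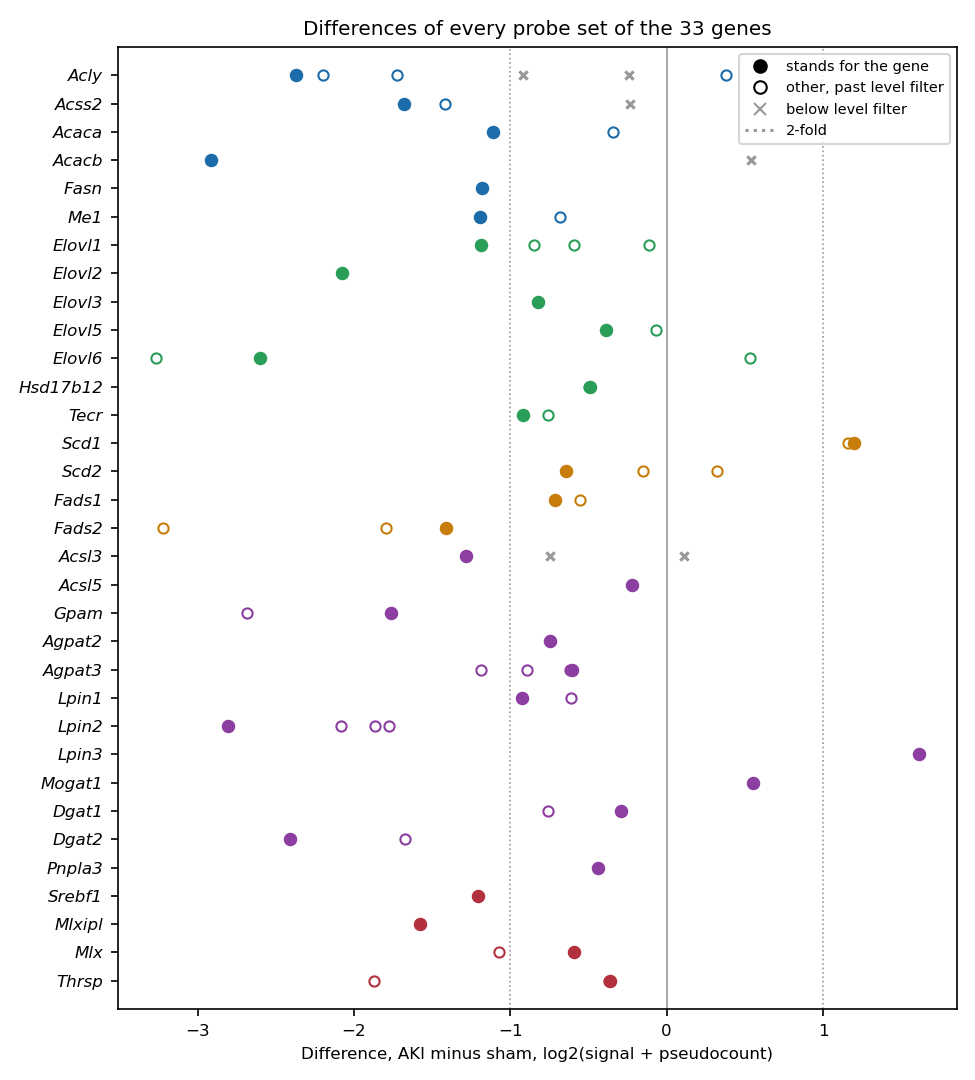
Difference in log2(signal + 71.8), AKI minus sham, of all 72 probe sets of the 33 genes, with the probe set that stands for the gene filled, other probe sets past the level filter open and those below it as grey crosses. Scd1 is alone in having several probe sets that all lie above 1, and Acly, Elovl6 and Scd2 each have probe sets past the filter on both sides of 0.

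Promoter sequences are shown as background, because SREBP-1 is known to act together with the factor NF-Y, which binds the CCAAT box. The part of these sequences in the differences was not tested. RefSeq sequences of build GRCm38.p6, from 250 bases before to 50 bases after the start site, were at hand for 27 members. The motifs searched on both strands were CCAAT, the E-box CACGTG, the GC box GGGCGG and the sterol response element TCACNCCAC. Below are the 120 bases before a start site, 5′ to 3′ on the gene's strand, of 4 genes that were at least 2-fold lower and carry CCAAT in this stretch, of 2 such genes that differed little (Elovl5 and Thrsp), and of Mlxipl. For a gene with several start sites, the first whose stretch holds the marked motif was printed, so these matches follow from the choice. Capitals mark CCAAT or its reverse complement ATTGG, and in Mlxipl the E-box CACGTG. In Fasn the CCAAT and ATTGG matches nearest the start site overlap.
Fasn, chr11:120824548-120824667, minus strand: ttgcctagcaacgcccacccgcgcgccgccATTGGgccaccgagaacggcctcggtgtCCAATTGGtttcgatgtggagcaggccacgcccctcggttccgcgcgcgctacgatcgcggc
Gpam, chr19:55127239-55127358, minus strand: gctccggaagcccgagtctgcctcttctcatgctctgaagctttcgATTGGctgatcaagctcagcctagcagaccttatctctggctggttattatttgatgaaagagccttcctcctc
Acss2, chr2:155517923-155518042, plus strand: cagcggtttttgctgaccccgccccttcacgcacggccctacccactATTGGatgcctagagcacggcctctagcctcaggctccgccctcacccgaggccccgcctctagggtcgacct
Acacb, chr5:114165398-114165517, plus strand: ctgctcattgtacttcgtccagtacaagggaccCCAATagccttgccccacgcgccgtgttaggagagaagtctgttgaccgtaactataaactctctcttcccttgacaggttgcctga
Mlxipl, chr5:135089770-135089889, plus strand: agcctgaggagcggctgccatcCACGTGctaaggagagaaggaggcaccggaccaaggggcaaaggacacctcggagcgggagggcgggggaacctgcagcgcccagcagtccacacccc
Elovl5, chr9:77917245-77917364, plus strand: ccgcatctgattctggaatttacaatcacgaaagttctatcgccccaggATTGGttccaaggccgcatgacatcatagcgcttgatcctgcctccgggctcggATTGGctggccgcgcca
Thrsp, chr7:97417551-97417670, minus strand: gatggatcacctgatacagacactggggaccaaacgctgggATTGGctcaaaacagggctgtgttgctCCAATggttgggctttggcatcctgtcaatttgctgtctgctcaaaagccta

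CCAAT was in a window of 19 of the 27 members (70.4%), and in a window of 41.1% of all 27025 genes in the table. It was in 11 of the 15 members that were at least 2-fold lower and in 8 of the 12 others. The GC box was in 16 members (59.3%) against 38.2% of all genes, and in 11 of the 15 and 5 of the 12. The E-box was in 5 members (18.5%) against 8.09% of all genes, and in 2 of the 15 and 3 of the 12. The sterol response element was in 1 (3.70%), a second window of Mlxipl, against 1.44%. These are counts of letters in short windows and show neither binding nor its absence.

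In the synthesis step, all 6 genes were lower by 2-fold or more after AKI, and their median was -1.44. Acly encodes ATP citrate lyase, which supplies cytosolic acetyl-CoA from citrate. It gave 6113.4 for sham and 1124.8 for AKI, a difference of -2.37. Of its other probe sets past the filter, those at -1.73 and -2.20 went the same way and a weak one (216.9 and 303.5) was at 0.38. Acss2, whose product makes acetyl-CoA from acetate, was lower too, with 3918.1 and 1171.6 (-1.68) and a second probe set at -1.42. The genes of both acetyl-CoA carboxylases were lower, by unequal amounts. Acacb, the form at the mitochondrial surface whose malonyl-CoA restrains fatty acid import, had signals of 860.9 and 51.9 (-2.91). Because its AKI signal was below the level filter, the size and its rank among the members depend on the added constant. It was -4.03 with a constant of 1 and -1.96, short of 4-fold, with the median of the table. Acaca, the cytosolic form that feeds fatty acid synthase, had signals of 1189.1 and 512.4 (-1.11), and its second probe set was at -0.34. Fasn, fatty acid synthase itself, had a single probe set with 5304.2 for sham and 2301.8 for AKI (-1.18). Me1, malic enzyme, a source of cytosolic NADPH, had 7704.7 and 3334.3 (-1.19), with its second probe set at -0.68. The order of Acly and Acss2 depends on the choice of probe set, since the mean over probe sets past the filter was -1.48 for Acly and -1.55 for Acss2.

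In the elongation step, all 7 genes lay below 0 and 3 of them were at least 2-fold lower, with a median of -0.92. Elovl6, the elongase that takes palmitate to stearate, had signals of 2738.5 and 390.5 (-2.60). A second probe set (1141.3 and 54.1) was at -3.27 and another, weak one (167.1 and 273.3) at 0.53. The former passed the filter through the sham array only and the latter through the AKI array only, which by itself favours these directions. Elovl2, which elongates polyunsaturated chains, had 1 probe set with 6865.6 and 1571.2 (-2.08). Elovl1, an elongase of very long saturated chains, was at -1.19 (2324.0 and 978.9), with its other 3 probe sets between -0.85 and -0.11, so that its call rests on 1 of 4 probe sets. Elovl5, the elongase of polyunsaturated chains of middle length, differed little, with 28166.4 and 21462.9 (-0.39) and a second probe set at -0.07. The 2 elongases of polyunsaturated chains thus had unlike differences. Elovl3, an elongase of saturated and monounsaturated chains, was at -0.82 (644.6 and 333.7). The member list also holds enzymes of the later reactions of each elongation cycle, and these were lower by less than 2-fold. Hsd17b12, the 3-ketoacyl-CoA reductase, was at -0.49 (3921.1 and 2774.5), with a second probe set at -0.50. Tecr, the trans-enoyl-CoA reductase, was at -0.92 (11634.0 and 6113.6), with a second one at -0.76.

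The desaturases went both ways. Scd1, the main hepatic stearoyl-CoA desaturase, which makes oleate from stearate, went the other way, from 26811.7 (sham) to 61727.9 (AKI), a difference of 1.20. Its second probe set, with 2868.7 and 6506.9, gave 1.16. Both probe sets of Scd1 thus more than doubled while the elongase gene Elovl6, whose product supplies its substrate, was among the lowest of the members. Scd2 was weak, and its 3 probe sets were at -0.65, -0.15 and 0.32, so no direction can be given. Whether probe sets of the closely related Scd genes detect each other's transcripts was not tested. Fads2, the first desaturase of polyunsaturated fatty acid synthesis, had 7984.2 and 2956.5 (-1.41), and its other probe sets were at -1.80 and -3.22. Fads1, the desaturase that follows it, was lower by less than 2-fold, with 22311.6 and 13546.1 (-0.72) and a second probe set at -0.55. Over the 4 desaturase genes the median was -0.68.

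In the esterification step, which includes acyl-CoA synthetases and a lipid droplet enzyme here, 10 of 12 genes lay below 0, 4 were at least 2-fold lower and 1 was at least 2-fold higher, with a median of -0.68. The acyl-CoA synthetases activate fatty acids. Acsl3 was at -1.29 (485.2 and 156.6), and Acsl5 hardly differed, with 8383.0 and 7186.5 (-0.22). Gpam, mitochondrial glycerol-3-phosphate acyltransferase, which begins glycerolipid synthesis, had 9892.7 and 2863.3 (-1.76), and its second probe set was at -2.68. Of the acyltransferase genes of the following reaction, both members were lower by less than 2-fold. Agpat2 was at -0.75 (3848.9 and 2267.1) and Agpat3 at -0.61 (2163.0 and 1396.0), with the 4 probe sets of Agpat3 between -1.19 and -0.61.

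The 3 lipin genes, which encode phosphatidate phosphatases that make diacylglycerol, had unlike values. Lpin2 had a sham signal of 8884.2 and an AKI signal of 1206.7 (-2.81), and its other 3 probe sets lay between -2.08 and -1.78. Lpin1, whose product is also a transcriptional coactivator, had 9050.0 and 4736.6 (-0.92), with a second probe set at -0.61. Lpin3 had 37.8 and 263.5 (1.61) on its only probe set. The sham signal of Lpin3 was far below the level filter and its AKI signal just above it, so this difference rests on weak signals. It was 0.89 with an added constant of 228.7, the median of the table, and 2.77 with a constant of 1.

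The last reaction of triglyceride synthesis is carried by diacylglycerol acyltransferases. Dgat2, the form tied to newly made fatty acids, had a sham signal of 24651.8 and an AKI signal of 4591.2 (-2.41), and its second probe set was at -1.67. Dgat1, of a different protein family, was at -0.29 (1000.8 and 804.6), with a second probe set at -0.76. Every probe set of Dgat2 thus lay below every probe set of Dgat1. Mogat1, a monoacylglycerol acyltransferase, was at 0.55 (341.4 and 533.9). Pnpla3, a lipid droplet protein gene known as an SREBP-1c target, was weak on both arrays and lay at -0.44 (247.0 and 163.7).

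All 4 regulators lay below 0, and 2 of them were at least 2-fold lower, with a median of -0.90. Srebf1, measured by a single probe set that was not assigned to either of its transcript forms here, had 6749.6 and 2880.5 (-1.21). Mlxipl, the gene of ChREBP, had 6976.1 and 2286.5 (-1.58). The gene of its obligate partner, Mlx, differed less, with 779.2 and 492.6 (-0.59), and its second probe set was at -1.07. Thrsp, a lipogenic protein gene induced by thyroid hormone and carbohydrate, differed little on its brighter probe sets, with 30655.3 and 23792.1 (-0.36) and -0.37. Another, weak probe set of Thrsp (414.1 and 60.9) was at -1.87. It passed the filter through the sham array only, which by itself favours a lower value.

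Lists of neighbouring functions were set beside the members. Over all genes past the filter 12.8% were at least 2-fold lower and 10.7% at least 2-fold higher. Genes that supply carbon and NADPH were 9 in number with a median of -0.49, and 1 was at least 2-fold lower, Pklr (-1.88), the liver pyruvate kinase, whose probe sets ranged from -3.79 to -0.94. The mitochondrial citrate carrier Slc25a1 (-0.87), Mdh1 (-0.72) and Idh1 (-0.64) were lower by less than 2-fold. The probe sets of Mdh1 past the filter, however, ranged from -1.22 to 0.22. Isoenzymes and partner enzymes of the pathway outside the member list had a median of 0.02 over 21 genes past the filter, with 10 below 0. Acsl6 (2.72), Gpat3 (1.18) and Fads3 (1.07) were at least 2-fold higher, and Fads6 (-2.42) and Oxsm (-1.06) at least 2-fold lower, with a second probe set of Oxsm at 1.95. Acsl6 and Fads3 passed the filter through the AKI array only and Oxsm through the sham array only, so their direction follows in part from the filter. The only probe set past the filter of Acsl6, an acyl-CoA synthetase, had 45.4 for sham and 699.2 for AKI. Gpat3, a glycerol-3-phosphate acyltransferase of the endoplasmic reticulum, had 1125.1 and 2649.2, opposite in direction to Gpam, which carries out the same reaction at mitochondria.

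The list of regulatory inputs, mostly genes that act on or with SREBP-1c and ChREBP, had 22 genes with a median of -0.58. It also holds Mid1ip1, whose product acts on an enzyme of the pathway. Of the 22 genes, 5 were at least 2-fold lower and 2 higher, beside 12.8% and 10.7% of all genes. Ppargc1b, a coactivator of SREBP-1c, had 2027.1 and 96.8 (-3.64). It passed the filter through the sham array only, so its direction follows in part from the filter and its size depends on the added constant. Mid1ip1 (-1.53), whose product promotes polymerization of acetyl-CoA carboxylase, the liver X receptor gene Nr1h3 (-1.43), and Insig1 (-1.42), which retains SREBP precursors in the endoplasmic reticulum, were lower as well. Rxra, the partner of liver X receptors, was at -1.31, with a second probe set at 0.01. Sp1 (1.29), whose 3 probe sets lay between 1.17 and 1.53, and Mlxip (1.08), a paralogue of Mlxipl, were higher. Of 17 cholesterol synthesis genes 10 were at least 2-fold lower, with a median of -1.48. Of 19 fatty acid oxidation genes, whose median was -0.68, 2 were at least 2-fold lower, Hadha (-1.80) and Etfb (-1.12), beside 12.8% of all genes. Below 0 lay 18 of these 19 genes and 16 of the 17 cholesterol synthesis genes, against 51.1% of all genes. So did 8 of 9 supply genes, 16 of the 22 regulatory inputs, and 9 of 10 hepatocyte markers. A value below 0 was thus not particular to the members. Differences between these lists and the members were not tested.

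**Figure D3:**
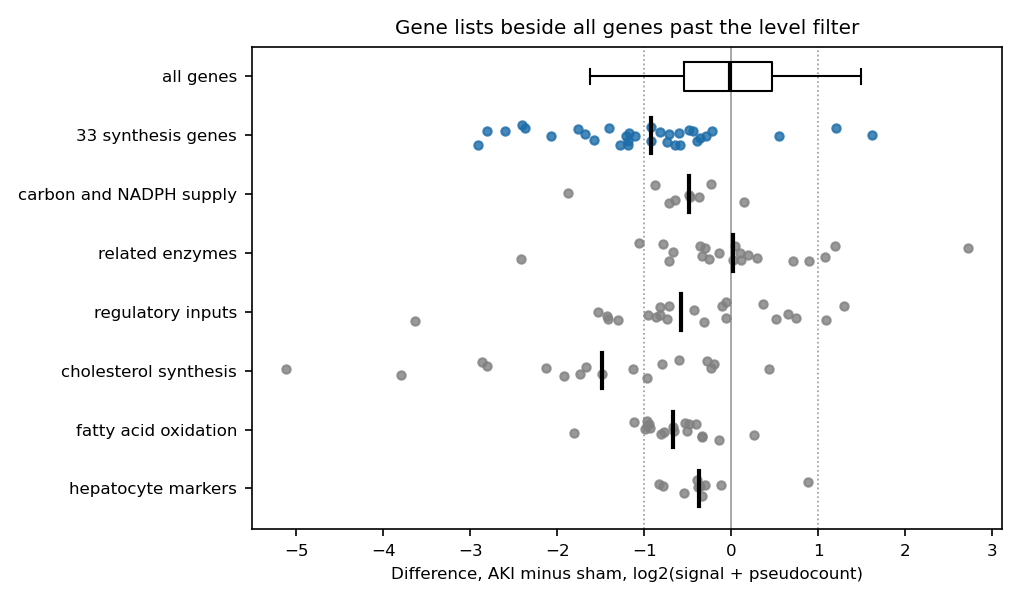
Difference in log2(signal + 71.8), AKI minus sham, for genes past the level filter, with each dot a gene and each bar a list's median, below a box of all 13142 genes (median, quartiles, whiskers at the 5th and 95th percentiles). The members' median is -0.92, between those of cholesterol synthesis (-1.48) and fatty acid oxidation (-0.68), and related enzymes are centred at 0.02.

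The difference of each member was also computed under alternative settings of scaling, added constant, level filter and choice of probe set. In every setting that gave a value, 10 members were at least 2-fold lower: Acly, Acss2, Acacb, Elovl2, Elovl6, Fads2, Gpam, Lpin2, Dgat2 and Mlxipl. Not every setting could change a value. Other level filters leave a difference as it is, and a member with a single probe set past the filter keeps that probe set. Among the 10, Acacb, Elovl2 and Mlxipl had a single such probe set, so the choice of probe set could not move them. Scd1 was at least 2-fold higher in every setting, from 1.00 to 1.50. Another 17 members lay below 0 throughout without always passing 2-fold, among them Fasn (-1.38 to -0.88), Acaca (-1.31 to -0.34) and Srebf1 (-1.41 to -0.91). Lpin3 and Mogat1 stayed above 0 in every setting that gave them a value, Lpin3 from 0.89 to 2.77, and Scd2, Acsl5 and Dgat1 lay on both sides of 0. Centred on 18 spiked hybridization controls, 10 members were at least 2-fold lower, beside 8.45% of all genes, and centred on the reference genes 19 were, beside 17.2%. These centrings shift every gene alike, so the members' median minus that of all genes stayed at -0.90. Median, quantile and lowess scaling left the count at 16.

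**Figure D4:**
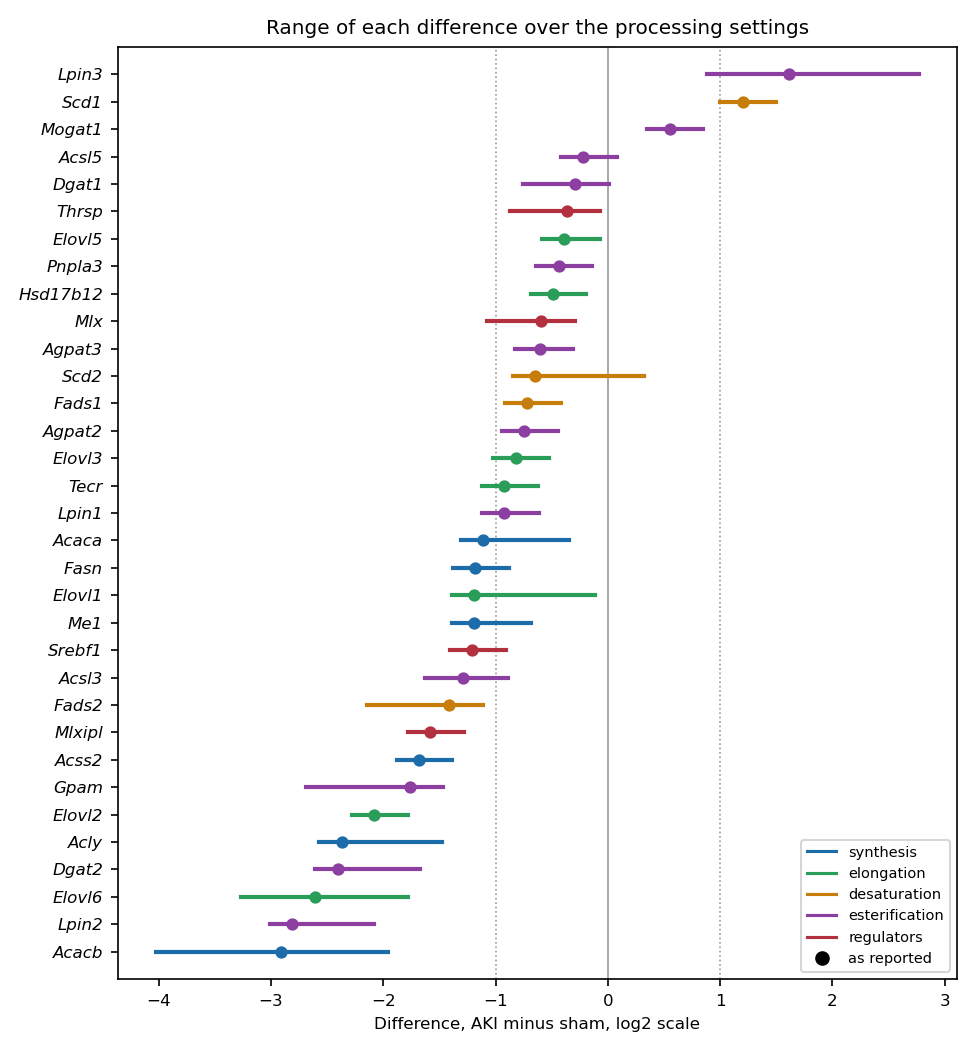
Difference, AKI minus sham, of each of the 33 genes as reported (dot) and its lowest and highest value over the processing settings (line), sorted by the reported difference, with dotted lines at 2-fold. The lines of 10 genes lie wholly below -1 and that of Scd1 wholly above 1, while those of Scd2, Acsl5 and Dgat1 cross 0.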

How the data were processed

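The authors deposited 1 signal intensity per probe set and array on a linear scale, from 0.6 to 127786.6. Per the labels' protocols, Trizol was used for the extraction, and 8 ug of total RNA went into the biotin-labelled cRNA. Software: not given in the sources used here. The 2% trimmed mean was 500.00 on both arrays, so the authors had scaled them to a common target, which removes a difference in total mRNA. Of 45101 probe sets, 64 are controls, and 34945 others carry 1 gene symbol, 932 several and 9160 none. All 33 member symbols matched a RefSeq gene table of GRCm38.p6 through Entrez numbers. The table of values names no build.

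Differences, the level filter and the probe set rule were computed in Python 3.11.15 with numpy 2.4.6 and pandas 2.3.3, and the code was tested on simulated data. With 1 array per group no p-value is given, and the number of arrays limits the precision. Named genes were all members, of each further list the 4 with the largest differences (more to complete a count of up to 5), and of markers the 3 brightest. Of cholesterol synthesis and fatty acid oxidation mainly counts are given. The members, lists and rules were chosen with earlier results of these data known. Alternatives were median, quantile, lowess (fraction 0.3), spiked-control and reference-gene scaling, other added constants and level filters, the mean or the second probe set of a gene, and leaving out those whose names end in _s_at, _x_at or _a_at. Some list genes had no probe set of a single symbol and were not analysed here.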

Additional observations from a re-analysis of the deposited data

How the results depend on the processing

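No paired analysis was possible because each group is 1 array. Over all 12 alternatives the members' median stayed between -1.14 and -0.63, and the members below 0 numbered 24 to 30. The 24 were of the 27 members left without the suffixed probe sets. In settings that kept all 33 members the lowest number was 28, with hybridization control centring. With hybridization control centring, which moves the median of all genes to 0.28 from -0.02, 10 members were at least 2-fold lower, 3 of them in synthesis and 1 among the regulators. Of the related enzymes 1 was then lower and 5 higher, of fatty acid oxidation 1 was lower, and over all genes 1111 were lower and 2252 higher (67.0% of calls higher, against 45.6%). With reference gene centring, which moves that median to -0.22, 5 elongation genes, 2 supply genes, 9 regulatory inputs and 8 fatty acid oxidation genes were lower, 1 related enzyme and 1 regulatory input were higher, and 31.6% of calls over all genes were higher. With the table median as added constant, 14 members were at least 2-fold lower and 1 (Scd1) higher, 1 related enzyme was lower and 2 higher, 5 regulatory inputs were lower and 1 higher, and over all genes 1093 were lower and 867 higher. With the stricter level filter 28 members were left, with 1 at least 2-fold higher, and 1 related enzyme was lower, as it was with the mean of probe sets. With the second probe set of a gene 0 supply genes were lower, and 5 related enzymes and 4 regulatory inputs higher. Without the suffixed probe sets 27 members were left, and 0 of the regulators, of which only Thrsp was measured, was at least 2-fold lower. Quantile normalization put 4 fatty acid oxidation genes past 2-fold. In no case did a member that was at least 2-fold different change its sign. With 1 array per pool, differences between mice within a group cannot be estimated, and weak signals, such as those of Lpin3, Pnpla3 and Scd2, limit what can be said of them.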
